A study of Rattus norvegicus with 12 samples.

Results

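Transgenic T cells isolated from the brain parenchyma were compared with transgenic T cells isolated from the brain meninges. The libraries were chosen by their labels, genotype "b-syn TCR Tg" with tissue "Brain parenchyma" (3 libraries) or "Meninges Brain" (3 libraries), so that 6 of the 12 libraries of the series enter the comparison. All cells were CD4+ T cells reactive to β-synuclein, a protein of neuronal synapses, of the Lewis rat strain LEW/Crl. Both groups carried the transgenic T cell receptor, were injected intravenously and were recovered by sorting, at day 3 according to the stated design. The parenchyma titles alone carry the digit 4 where the meninges titles carry 3, and no source used here says what that digit means. A difference in day or in library kit, if there was one, and the difference in tissue cannot be told apart. The same sources do not name the age of the rats, the host of the transfer or the sorting marker. Transgenic blood libraries (n = 3) served to estimate the spread and are shown for reference. Wild-type blood libraries (n = 3) stayed outside that fit and serve for count shares and for a comparison of genotypes in blood.

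The meninges are the membranes around the brain and are a place where T cells that leave the blood meet antigen-presenting cells before they enter the tissue. The parenchyma is the brain tissue itself, with neurons, glia and the resident macrophages called microglia. A T cell that recognises its antigen is known to switch on signalling, cytokine and growth genes and to lower genes of the resting, recirculating state. Cells sorted from tissue can also carry RNA of neighbouring cells.

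The deposited files list genes by Ensembl rat identifiers without names, and 0 lines of the RefSeq gene table at hand held such an identifier. Lists of T cell genes and of markers of other cell types could therefore not be matched, the sorted cell type was not checked against its markers, and no promoter or protein sequence could be assigned. The results below describe sets of genes by their values, and 4 identifiers are printed, 2 per direction. In such bulk libraries, fewer cells of a type and less RNA per cell cannot be told apart.

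Between 19054156 and 27761421 counts were assigned to genes in the parenchyma libraries and between 16643832 and 32843166 in the meninges libraries. Parenchyma replicate 3 stood apart in several measures. It held at least 1 count in 17095 genes, against 15400 and 15725 in the other parenchyma libraries and 15091 to 15633 in the meninges. Within the parenchyma, between 750 and 910 of the 11809 tested genes differed at least 2-fold between any pair of libraries, on log2(CPM + 0.5). Within the meninges, the corresponding numbers were 51 genes between replicates 2 and 3, 271 between 1 and 3, and 339 between 1 and 2. CPM is the count divided by the library size in units of 1e6, after TMM scaling of the library sizes. The labels do not state whether the replicates are separate animals, so the p-values below reflect the spread of these libraries alone. That spread may be technical.

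Genes in which a single library lay at least 4-fold above both others of its tissue were concentrated in parenchyma replicate 3. It stood above the other parenchyma libraries in 233 tested genes, parenchyma replicate 1 in 1 gene and replicate 2 in 1 gene. In the other direction, parenchyma replicate 2 lay at least 4-fold below both others in 111 genes, replicate 1 in 1 and replicate 3 in 0. In the meninges the highest number was 11 genes above, in replicate 1, and in transgenic blood 13 genes above, also in replicate 1. The parenchyma libraries thus differed from each other mainly along a line with replicate 3 high and replicate 2 low.

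**Figure D1:**
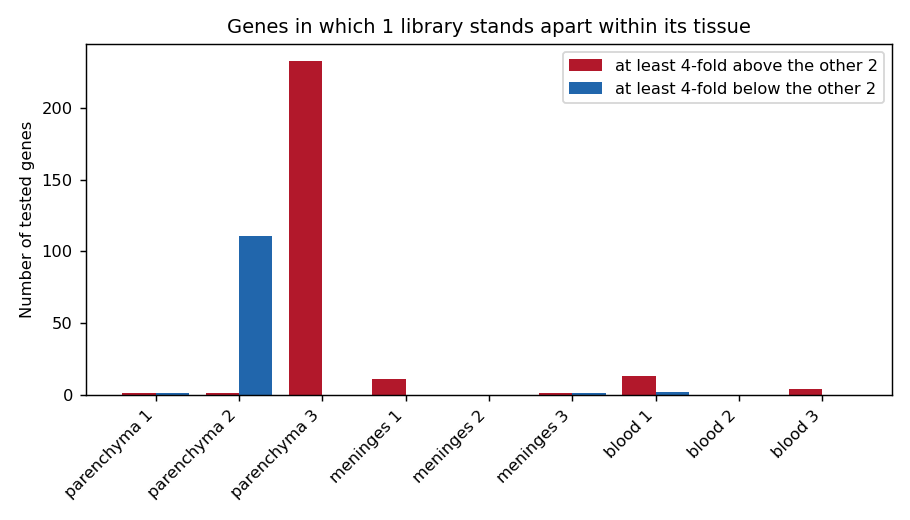
Number of tested genes (y axis) in which 1 library lies at least 4-fold above (red) or below (blue) both other libraries of its tissue, for each of the 9 transgenic libraries (x axis), on log2(CPM + 0.5). Parenchyma replicate 3 has 233 genes above and parenchyma replicate 2 has 111 genes below, while no meninges or blood library exceeds 13 in either direction.

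Libraries of sorted T cells from the parenchyma and from the meninges differed in a sizeable part of the tested genes, in both directions. Of 11809 tested genes, 945 were higher in the parenchyma (8.0%) and 883 were lower (7.48%), together 15.5%, by edgeR's quasi-likelihood F test with a Benjamini-Hochberg adjusted p below 0.05. These counts rest on a spread estimated with the blood libraries. A fit of the 6 compared libraries alone called 1271 genes, 584 higher and 687 lower. By the rules below, the 2 directions differed in how the parenchyma libraries shared the change, but these rules are not neutral between directions. A called gene was counted as changed in all 3 libraries when every parenchyma library lay beyond every meninges library and the farthest of them was less than 4-fold beyond the next on CPM + 0.5. A library that moved much less than the others is allowed by this rule, and 54 of the 822 higher genes of this class differed at least 4-fold between the highest and the lowest parenchyma library. It was counted as carried by 1 library when the farthest parenchyma library lay at least 4-fold beyond the next on CPM + 0.5, or when it alone lay beyond the meninges, which was met by 0 called genes. All parenchyma libraries lay above all meninges libraries in 16.6% of the tested genes, called or not, and below them in 16.9%. Under these rules 1705 genes changed in all 3 libraries, 100 were carried by 1 library, and 23 were mixed, with 1 parenchyma library not above all meninges libraries.

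Every one of the 883 lower genes was changed in all 3 parenchyma libraries, and 0 were carried by 1 library or mixed. A gene near 0 CPM in the parenchyma can hardly meet the 4-fold rule in this direction, since 0.5 CPM is added. The test also compares group means. A single high library can raise such a mean without limit, whereas a single low library leaves the part held by the others. A called fall carried by 1 library is therefore hardly possible, and the 0 is in large part fixed by the measure. The decreases of the 883 genes were moderate and even. The median decrease was 1.70-fold, and 289 genes fell more than 2-fold, 49 more than 4-fold and 5 more than 8-fold. The highest and the lowest parenchyma library differed by a median of 1.25-fold in these genes. The median level was 47.5, 45.2 and 48.2 CPM in parenchyma replicates 1, 2 and 3, against 76.9, 77.4 and 78.6 CPM in the meninges and 79.6 to 82.9 CPM in transgenic blood. Together these genes held 11.9%, 11.3% and 11.7% of the counts of the parenchyma libraries and 18.6%, 18.4% and 18.2% of those of the meninges. All 3 parenchyma libraries lay below all meninges libraries in this summed share. The genes were chosen by this contrast, and the shares describe them without a test. In transgenic blood the same genes held 19.6% ± 0.115 of the counts (SD, n = 3), and in wild-type blood between 19.9% and 20.3%.

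Among the 945 higher genes, 822 were changed in all 3 parenchyma libraries, 100 were carried by 1 library and 23 were mixed. The 822 genes rose by a median of 2.03-fold, with an upper quartile of 3.62-fold. Their median level was 26.9, 27.4 and 30.2 CPM in parenchyma replicates 1, 2 and 3, and 11.9, 13.3 and 14.1 CPM in the meninges. In transgenic blood it was between 10.1 and 10.6 CPM. These genes took 8.19%, 8.54% and 8.75% of the counts of the parenchyma libraries, 4.29%, 4.65% and 4.62% of the meninges libraries and 3.55% ± 0.0872 of transgenic blood (SD, n = 3). The choice of the genes fixes that the parenchyma shares lie above those of the meninges, and the shares are a description without a test. Within the set, 662 genes differed by less than 2-fold between the highest and the lowest parenchyma library. These 662 genes rose by a median of 1.79-fold. Of the 822 genes, 108 passed the minimum count only because of the parenchyma libraries, and for those a difference is built into the selection.

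**Figure D2:**
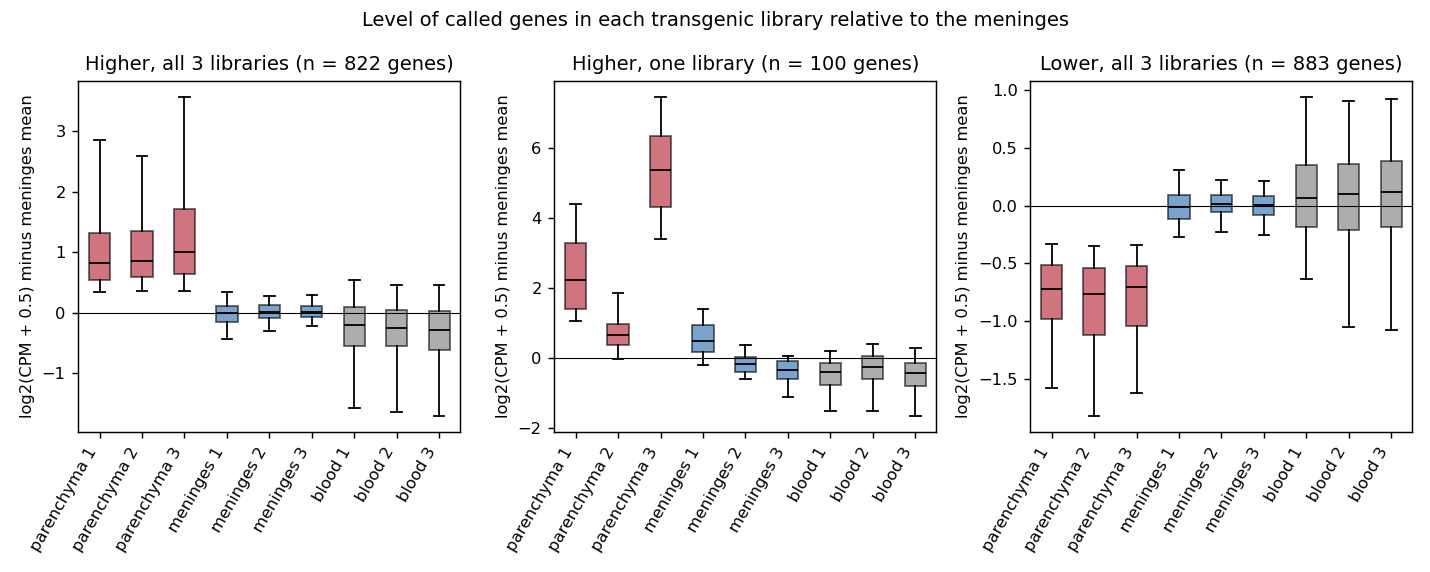
Boxes show, for each of the 9 transgenic libraries (x axis), log2(CPM + 0.5) minus the mean of the meninges libraries (y axis) for genes called between parenchyma and meninges (line, median; box, interquartile range; whiskers, 5th to 95th percentile). The medians of the 822 genes higher in all 3 libraries (left) are 0.81, 0.85 and 1.00 in parenchyma replicates 1 to 3, those of the 100 genes carried by 1 library (middle) are 2.24, 0.67 and 5.38, and those of the 883 lower genes (right) are -0.73, -0.77 and -0.70.

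The 100 genes carried by 1 library were all higher in the parenchyma, and in 99 of them the library was replicate 3. Replicate 2 carried the remaining gene. The library that carried a gene lay a median of 6.93-fold above the next parenchyma library, and at most 82.7-fold. Median levels were 56.4 CPM in replicate 3, 5.58 CPM in replicate 1 and 1.44 CPM in replicate 2. In the meninges they were 1.33 CPM in replicate 1, 0.522 CPM in replicate 2 and 0.403 CPM in replicate 3, and in transgenic blood between 0.269 and 0.395 CPM. These genes held 1.27% of the counts of parenchyma replicate 3, 0.160% of replicate 1 and 0.0407% of replicate 2. In the meninges they held 0.0303%, 0.0152% and 0.0126%, and in the 6 blood libraries of both genotypes between 0.0101% and 0.0151%.

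The rise of these genes was much smaller in the other parenchyma libraries, and in replicate 2 it was near the spread of the meninges. Their median log2 difference from the meninges mean was 2.24 in parenchyma replicate 1 and 0.668 in parenchyma replicate 2. In meninges replicate 1 it was 0.486. All 3 parenchyma libraries lay above all meninges libraries in 53 of the 100 genes, and 2 libraries did so in 47. When parenchyma replicate 3 was left out, the median fold change of the set went from 26.8 to 4.54, 0 of 99 genes still tested changed direction, and 37 were still called. For the 822 genes changed in all 3 libraries, the same omission moved the median from 2.03-fold to 1.93-fold, and 567 were still called. Both sets were called with all 3 parenchyma libraries in the fit, which favours a kept direction. Of the 100 genes, 44 passed the minimum count only through the parenchyma.

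The order of the libraries was also read in a wider set, which contains the 100 genes above. In 173 of the higher genes the highest and lowest parenchyma library differed at least 4-fold, a limit chosen after the values were seen. By their 4-fold gap all 100 genes carried by 1 library are among them, with 54 counted as changed in all 3 libraries. The order is thus in large part that of the 100 genes. Of the 173, 83 passed the minimum count only through the parenchyma. In 160 of the 173 genes, replicate 3 was highest, replicate 1 next and replicate 2 lowest. That order was found in 316 of all 945 higher genes and in 169 of the 883 lower genes. In the meninges, replicate 1 was the highest library in 137 of these 173 genes, against 193 of the 662 higher genes with a spread under 2-fold and 4479 of all 11809 tested genes. Meninges replicate 1 held 0.0419% of its counts in the 173 genes, and replicates 2 and 3 held 0.0225% and 0.0196%. The parenchyma libraries held 0.244%, 0.0734% and 1.48% in replicates 1 to 3. With no gene names, whether these transcripts belong to another cell type was not tested.

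**Figure D3:**
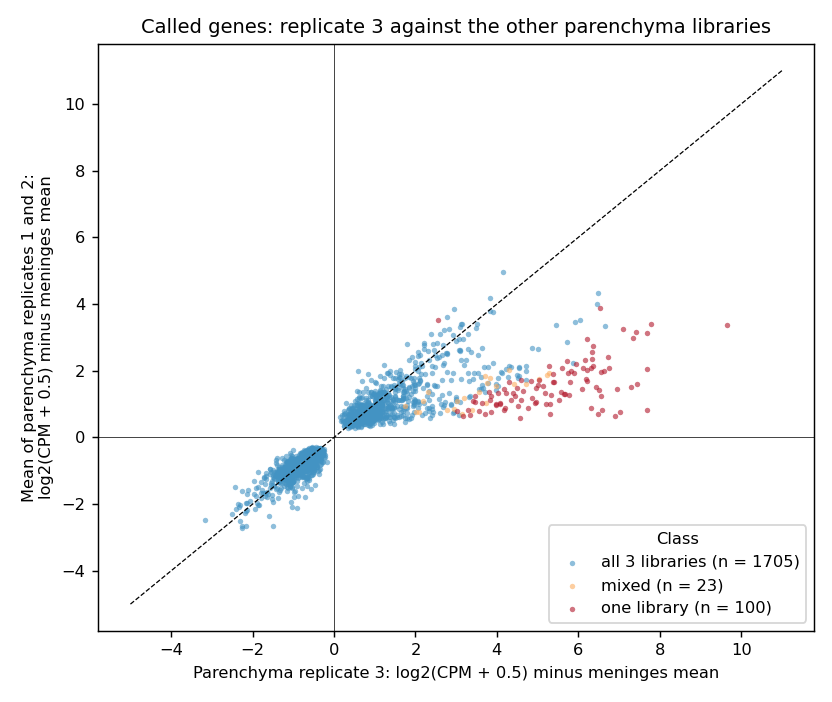
Each point is 1 of the 1828 called genes, with log2(CPM + 0.5) minus the meninges mean in parenchyma replicate 3 (x axis) against the mean of parenchyma replicates 1 and 2 (y axis); the dashed line marks equal values. The lower genes and most of the genes changed in all 3 libraries (blue) lie along the line, and the genes carried by 1 library (red) lie to its right, apart from the 1 gene carried by replicate 2.

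Counts of large rises depended on single libraries of both tissues and on the fit. In the fit of all libraries, 193 genes were more than 8-fold higher in the parenchyma and 5 were more than 8-fold lower. Of the 193, 96 were carried by 1 library, 87 were changed in all 3 and 10 were mixed. Without parenchyma replicate 3, 86 genes were more than 8-fold higher, of which 80 were among the 193, and 9 were more than 8-fold lower. Without parenchyma replicate 2, 433 were more than 8-fold higher and 2 lower. Leaving out meninges replicates 1, 2 and 3 gave 139, 64 and 68 genes more than 8-fold higher, and 3, 5 and 6 lower. The number higher was 55 with limma-voom, 92 in the fit of the 6 libraries alone, 107 with the replicate number as a block and 429 with no filter on low counts. At more than 2-fold the dependence on parenchyma replicate 3 was smaller, with 541 higher genes in all libraries and 363 without parenchyma replicate 3, and with 289 and 268 lower genes. Rises of more than 8-fold outnumbered falls of that size in each fit that left out 1 library. The minimum count and the group means are not neutral between directions. Of the 883 lower genes, 9 passed the minimum count only through the meninges. Through the parenchyma alone, 108 of the 822 and 44 of the 100 higher genes passed. With no filter, 429 were higher and 8 lower. The part of these choices was not tested.

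A further 89 genes had a mean at least 4 times higher in the parenchyma, on CPM + 0.5, but were not called. Of these, 78 were carried by 1 library, replicate 3 in all 78, and 11 were mixed. In the other direction, 0 genes with such a ratio missed the threshold and 18 were called. The ratio of means is not neutral between directions. One high library can raise a mean of 3 libraries 4-fold, but 1 low library cannot lower it 4-fold. The difference between 89 and 0 is thus in large part fixed by the measure. Among genes without any count in the meninges, 167 reached 10 counts in parenchyma replicate 3, 15 in replicate 1 and 4 in replicate 2. Only 2 genes reached 10 counts in all 3 parenchyma libraries with no count in the meninges. The reverse, 10 counts in all 3 meninges libraries with no count in the parenchyma, was met by 0 genes. Replicate 3 was also the deepest parenchyma library, with 27761421 counts against 19054156 and 21840045, and the part of depth in these numbers was not tested.

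Calls were also followed through refits that left out each parenchyma library in turn. The call and direction held in all 3 refits in 513 of the 945 higher genes and in 506 of the 883 lower genes. By class, 473 of the 822 genes higher in all 3 libraries, 37 of the 100 carried by 1 library and 3 of the 23 mixed genes were kept. With each meninges library left out as well, 6 fits in all, 256 of the 822, 3 of the 100 and 0 of the 23 were called every time, and 357 of the 883 lower genes. The total of 1828 was 1103, 730 and 809 without meninges replicates 1, 2 and 3, and 1313 without parenchyma replicate 3 (11% of the genes tested there). All of edgeR, DESeq2, limma-voom and limma-voom with library weights called 672 of the 822, 792 of the 883 and 3 of the 100. Genes higher and lower were of similar number in the fit of all libraries, but the balance changed with the fit. Without parenchyma replicate 3, 653 were higher and 660 lower. Without parenchyma replicate 2 the numbers were 1255 and 904, and without meninges replicate 3 they were 336 and 473.

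**Figure D4:**
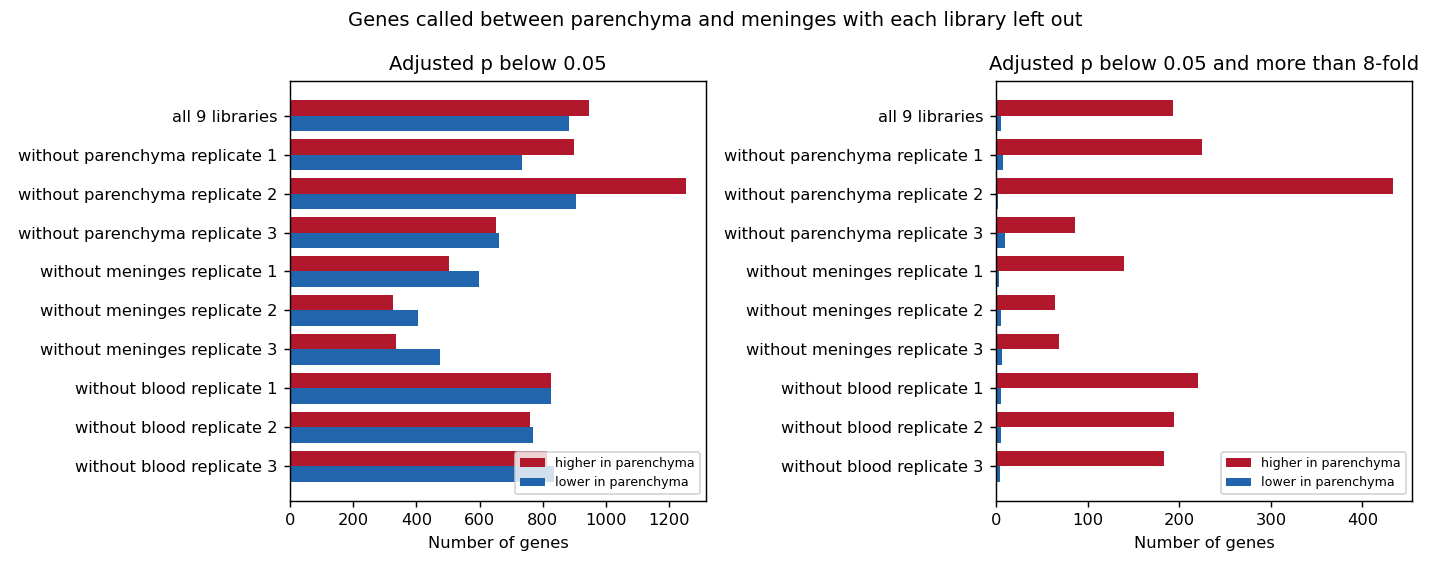
Number of genes (x axis) called higher (red) or lower (blue) in the parenchyma than in the meninges, with all 9 transgenic libraries and with each left out (y axis), for all calls (left) and for calls of more than 8-fold (right). Calls of more than 8-fold in the higher direction number 193 with all libraries, 86 without parenchyma replicate 3 and 433 without parenchyma replicate 2.

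The directions also differed in the level of the genes concerned. Among the 81 genes with a mean above 1000 CPM over the 6 libraries, 21 were lower and 10 higher in the parenchyma. In the band from 100 to 1000 CPM, 318 of 2366 genes were lower (13.4%) and 152 higher (6.42%). Between 1 and 10 CPM the balance was the other way, with 126 of 2631 genes lower (4.79%) and 305 higher (11.6%). In that band 44 of the higher genes were carried by 1 library, and the median rise was 4.57-fold against 1.54-fold between 100 and 1000 CPM. The minimum count is not neutral between directions for genes of low level. Of all 11809 tested genes, 456 passed it only because of the parenchyma libraries and 208 only because of the meninges libraries. Their part in the balance of the low bands was not tested. Of the 100 most abundant genes of the meninges, 34 were lower in the parenchyma, 6 were higher and 9 changed by more than 2-fold, the largest by 4.04-fold. These genes were chosen by their meninges level alone, a choice that favours falls. Precision differs between the bands, so the shares compare directions within a band and not bands with each other.

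The identifiers printed are those with the largest fold changes in their class, among genes of at least 20 CPM in the higher group or in the library that carries them. ENSRNOG00000009884 led the lower genes. It measured 43.8, 27.8 and 21.0 CPM in parenchyma replicates 1, 2 and 3 and 316, 166 and 141 CPM in the meninges. The groups did not overlap, and the meninges libraries were themselves spread, with replicate 1 highest. Transgenic blood measured 326, 245 and 364 CPM. Its log2 fold change was -2.75 (SE 0.36, adjusted p = 0.00182, edgeR), and between -2.54 and -3.09 when single parenchyma libraries were left out.

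ENSRNOG00000020457, the next of the lower genes, measured 7.56, 4.79 and 8.31 CPM in the parenchyma and 36.0, 45.3 and 45.4 CPM in the meninges. The 3 libraries of each tissue lay close together and the tissues did not overlap. Transgenic blood was higher still in every library, at 49.2, 59.5 and 63.7 CPM. The log2 fold change was -2.61 (SE 0.21, adjusted p = 0.000252, edgeR).

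Without a limit on level, genes counted as higher in all 3 libraries rose at most 535-fold. That largest rise lay among the genes with a parenchyma spread under 2-fold. ENSRNOG00000024382 led the genes of this class with at least 20 CPM. It measured 27.8, 2.04 and 84.0 CPM in parenchyma replicates 1, 2 and 3, against 0.755, 0.184 and 0.186 CPM in the meninges and 0.120 to 0.478 CPM in transgenic blood. Without the parenchyma libraries this gene would not have passed the minimum count, so a difference is built into its selection. No parenchyma library overlapped the meninges, but replicate 3 lay 33.2-fold above replicate 2 on CPM + 0.5, and the order of the libraries was that of the 173 genes above. The log2 fold change was 6.65 (SE 1.24, adjusted p = 0.00866, edgeR) and 5.30 without parenchyma replicate 3 (adjusted p = 0.00986). The call was lost with limma-voom (log2 fold change 5.79, adjusted p = 0.153). Over all alternatives the adjusted p lay between 1.41e-06 and 0.153.

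ENSRNOG00000008816 led the genes carried by 1 library. Its 970.8 CPM in parenchyma replicate 3 stood 28.6-fold above the next library on CPM + 0.5. Replicates 1 and 2 measured 33.5 and 4.04 CPM, still above the meninges at 1.24, 0.123 and 1.11 CPM. These values rest on 651, 91 and 26998 counts in parenchyma replicates 1, 2 and 3 and on 66 counts over the meninges libraries. Its log2 fold change was 8.54 (SE 1.93, adjusted p = 0.0187, edgeR) and 4.41 without replicate 3. Its call was lost in the fit of the 6 libraries alone (adjusted p = 0.0519), without any 1 meninges library, and with limma-voom (adjusted p = 0.288, or 0.0973 with library weights). Over all alternatives its adjusted p lay between 5.43e-06 and 0.288.

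**Figure D5:**
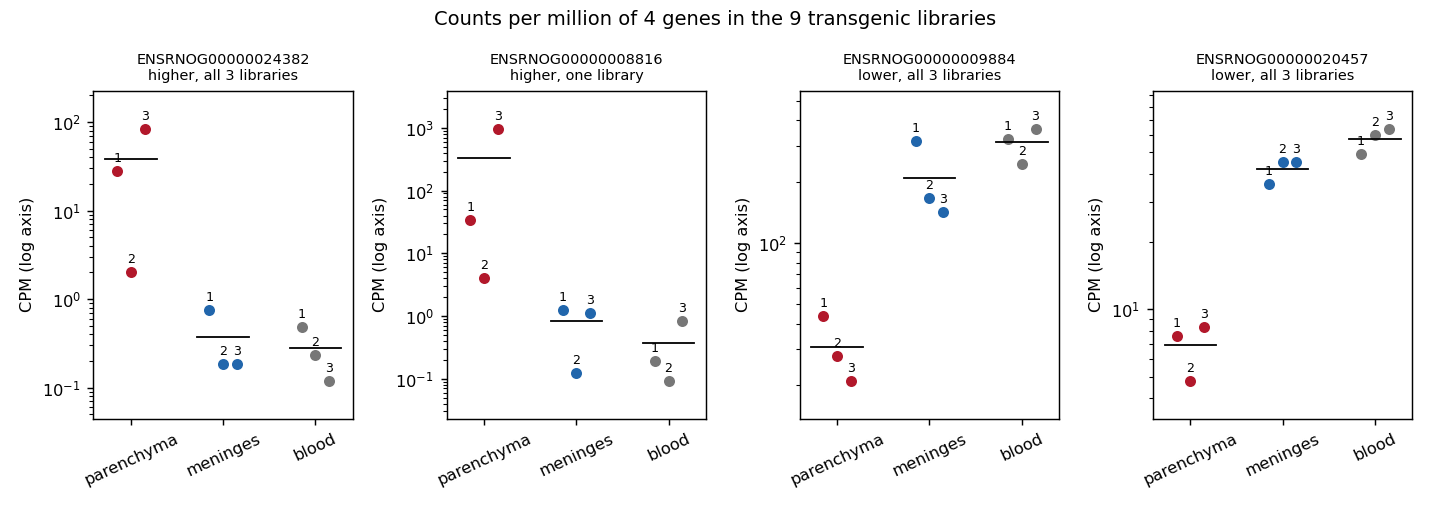
CPM on a log axis (y axis) of the 4 identifiers in parenchyma, meninges and transgenic blood (x axis); points are libraries, numbered by replicate, and lines are group means. The lower genes on the right span 21.0 to 43.8 CPM and 4.79 to 8.31 CPM in the parenchyma, below all meninges values, and the higher genes on the left spread from 2.04 to 84.0 CPM and from 4.04 to 970.8 CPM.

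The difference between transgenic and wild-type blood cells was set beside these classes, since it rests on blood libraries only and shares no library with either side of the comparison. The transgenic blood libraries do enter the spread estimate of the tissue fit. Over the genes tested in blood, 13.1% were higher and 12.8% lower in transgenic than in wild-type blood. Of the genes higher in all 3 parenchyma libraries, 712 were tested in blood, and 14.3% were higher and 19.5% lower in transgenic blood. These were 6.73% and 10.2% of the respective blood lists, counted over the 11347 genes in both fits. Of the lower genes, 878 were tested in blood, with 14.2% higher and 17.5% lower, which were 8.25% and 11.3% of the blood lists. These list shares are to be read beside the 712 and 878 genes that the sets make up of the 11347. Both sets had a median log2 difference between genotypes close to 0, at -0.03 and -0.02. Of the 100 genes carried by 1 library, 37 were tested in blood, of which 24.3% were higher and 13.5% lower in transgenic cells, with a median log2 difference of 0.48. Of the 23 mixed genes 14 were tested, with 35.7% higher, 7.14% lower and a median of 0.42. Both of these sets are small, and a difference from the other classes was not tested. Across the 11347 genes the fold changes of the contrasts correlated at r = -0.066 (Spearman's rho -0.04), as a description over genes, which are not independent replicates.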

How the data were processed

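Whole-number counts per gene were deposited by the authors for each library. Per the submitters' processing notes, the tools included STAR 2.5 and featureCounts 1.5.0-p1, and the genome build was rn6. Strand setting and annotation are not stated in these notes, so overlapping, antisense or near-identical genes may share reads. Per the labels' protocols, TruSeq and NEBNext low-input kits were named without the libraries they belong to.

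The 9 transgenic libraries were fitted together in edgeR 4.0.16 (R 4.3.3; filterByExpr with a minimum count of 10, TMM scaling, quasi-likelihood F test, two-sided, 6 residual degrees of freedom), with Benjamini-Hochberg adjustment over 11809 of 32754 genes. The SE of a log2 fold change was taken from the F statistic (absolute log2 fold change over the root of F). Classes used log2(CPM + 0.5). The fit was tested on simulated data. Replicate pairs differed beyond sampling noise (chi-square per degree of freedom at least 13.9). DESeq2 1.42.0 and limma 3.58.1 gave alternatives.

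Classes, limits and lists were chosen with earlier results of these data known. The named-gene rule took the largest log2 fold change per class and direction among genes of at least 20 CPM. Its lists by gene symbol, marker lists and promoter motifs could not be matched and are not analysed here.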

Additional observations from a re-analysis of the deposited data

How the results depend on the processing

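Directions did not reverse for any of the 4 printed identifiers under any alternative, and normalization by DESeq2 size factors left all counts within 1.5 times. Of the 1828 calls, 830 also exceeded 2-fold. With single libraries left out, the total of 1828 calls at any fold change ranged from 730 to 2159. This total was 1041 without parenchyma replicate 3 and meninges replicate 1 together, a setting chosen after the data were seen. The 1705 genes changed in all 3 libraries ranged from 727 to 1594 with single meninges or blood libraries left out. The 100 genes carried by 1 library numbered 211 with no filter on low counts, 56 with a mean of at least 10 CPM, 16 in a fit of only the 6 libraries, 192 with a gap of 2-fold and 31 with a gap of 8-fold. They ranged from 3 to 74 with single meninges or blood libraries left out and were 3 with limma-voom, a setting added for this count after the data were seen. The 1019 calls kept without each parenchyma library were 648 in the fit of only the 6 libraries and 661 with limma-voom and library weights, and ranged from 388 to 953 with a meninges or blood library left out. The 23 mixed genes ranged from 0 to 108 over the alternatives.

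Whether replicate numbers pair the libraries is not stated in the labels and was not settled. Deviations from the group means correlated at -0.21, -0.029 and -0.26 between parenchyma and meninges libraries of the same number. In this measure 0 of 3 libraries correlated best with its own number. With 3 libraries per tissue these values cannot decide it. A replicate block gave 1407 calls, 1355 of them in all 3 libraries and 31 carried by 1 library, and 598 calls kept without each parenchyma library. The cause of these changes was not tested, and some settings hold fewer libraries or genes. With 3 libraries per group and a wide spread in the parenchyma, small changes of low genes were not detectable, and a gene without a call is not shown to be equal. No processing alternative resolves the digit in the titles or the kit.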
